A study of Mus musculus with 36 samples.

Results

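Fatty acid uptake and oxidation was followed through 35 genes, taken by name from the pathway and covering each step from lipoprotein lipolysis at the vessel wall to the last reaction of mitochondrial β-oxidation. A gene was represented by the probe set annotated to its symbol alone with the highest mean over all 36 arrays. This gave a value for 33 of the 35 genes, all of which were tested, among 12970 tested genes in all. Acsl1, a long-chain acyl-CoA synthetase, and Cpt1b, the muscle form of the outer carnitine palmitoyltransferase, had no probe set of their own symbol alone and are given no value. Of the 33 genes, 31 lay above the cut-off for low values (an intensity of 171.8, the median of all values) on all 36 arrays, Slc27a1 on 32 and Ucp3 on 23.

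The arrays were Affymetrix mouse arrays of total RNA from C57BL/6 embryos of timed matings, with no treatment and no altered allele named in the labels. Atria and ventricles were sampled apart at 5 ages between embryonic day 12.5 (E12.5) and E18.5, the others being E13.5, E14.5 and E16.5. At E10.5 and E11.5 the sample was a block of the mid-embryo that contained the heart, here called the heart region, so that it also held other tissues. There were 12 groups of 3 arrays, few enough to limit precision. The labels do not say whether these came from separate animals, so p-values measure only the spread between these samples, which may be technical. The arrays titled E16.5 are described as day 15.5 in another label, and the day of the title is used.

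Long-chain fatty acids are freed from circulating triglyceride by lipoprotein lipase, taken up with the help of the membrane protein Cd36, carried in the cytosol by fatty acid binding proteins and activated to acyl-CoA. The carnitine shuttle moves them into the mitochondrion, where each round of β-oxidation shortens the chain by way of an acyl-CoA dehydrogenase, a hydratase, a second dehydrogenase and a thiolase, and passes electrons to the respiratory chain through electron transfer flavoprotein. The adult heart draws most of its energy from this pathway, while the fetal heart relies more on glucose and lactate, and nuclear receptors such as Ppara and Esrra control many of the genes.

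The upstream sequence of 4 members is shown because they cover the main patterns below: Cd36 had the largest change with age, Acadvl and Echs1 were higher at E18.5 in both chambers and lower in atria, and the region before Hadhb is shared with Hadha, which starts on the other strand with 272 bases between the starts. Sequences are the 250 bases before the annotated start in RefSeq on GRCm38.p6, 5′ to 3′ on the strand of the gene. Capitals mark AGGTCA on either strand (TGACCT where it lies on the opposite one), the hexamer that many nuclear receptors bind.
Cd36, chr5:17835897-17836146, minus strand: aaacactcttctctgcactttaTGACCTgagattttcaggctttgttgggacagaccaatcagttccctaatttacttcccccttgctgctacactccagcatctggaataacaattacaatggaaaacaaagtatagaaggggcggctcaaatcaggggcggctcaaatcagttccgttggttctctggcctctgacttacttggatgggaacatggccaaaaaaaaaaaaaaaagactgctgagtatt
Acadvl, chr11:70015429-70015678, minus strand: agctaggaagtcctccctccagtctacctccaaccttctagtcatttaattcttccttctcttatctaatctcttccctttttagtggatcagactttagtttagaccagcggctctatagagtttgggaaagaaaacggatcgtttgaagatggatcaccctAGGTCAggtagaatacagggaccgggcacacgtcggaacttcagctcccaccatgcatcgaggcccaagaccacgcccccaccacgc
Echs1, chr7:140116422-140116671, minus strand: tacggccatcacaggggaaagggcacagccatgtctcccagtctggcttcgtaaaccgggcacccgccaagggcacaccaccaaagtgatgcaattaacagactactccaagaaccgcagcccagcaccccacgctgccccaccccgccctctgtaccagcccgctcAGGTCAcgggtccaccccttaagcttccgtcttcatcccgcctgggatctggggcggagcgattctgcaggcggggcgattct
Hadhb, chr5:30155003-30155252, plus strand: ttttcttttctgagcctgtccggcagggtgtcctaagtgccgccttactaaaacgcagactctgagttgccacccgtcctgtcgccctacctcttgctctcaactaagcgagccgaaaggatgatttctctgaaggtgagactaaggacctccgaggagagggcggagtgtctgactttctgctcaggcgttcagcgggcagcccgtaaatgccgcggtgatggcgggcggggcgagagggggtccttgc

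RefSeq promoters were matched for 29 of the 35 genes, 32 promoters in all. AGGTCA stood in 6 of these 32 promoters (those of Acadm, Cd36, Ucp3, Echs1, Acadvl and Cpt1a), against 14.0% of 32851 promoters of the same length. The direct repeat of that hexamer with 1 base between the copies was in none of the 32 and in 0.0335% of all, and the extended form TCAAGGTCA was in none of the 32 and in 0.387% of all, each searched on both strands. Both longer forms contain the hexamer. A match says only that these letters lie in this window.

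Genes that mark the chambers followed the labels. All 6 atrial chamber markers tested (among them Sln and Myl7) were higher and all 5 ventricular markers (among them Myl2 and Irx4) lower in atria over the 5 ages. Single atrial arrays stood apart, however. The summed intensity of the 5 ventricular markers was 34908 to 57907 on 5 atrial arrays (E12.5 array 2, E14.5 arrays 1 and 2, E16.5 array 2 and E18.5 array 1), 5139 to 19672 on the other 10 atrial arrays and 47554 to 80549 on the 15 ventricular arrays. Lung and foregut genes were high on the third atrial array of E13.5, E16.5 and E18.5 (sums of 3830, 8352 and 14516), and liver genes on atrial array 2 of E12.5 and ventricular array 2 of E16.5 (sums of 18975 and 11468). The counts and medians that involve atria are given with and without these 5 arrays. In whole tissue, fewer cells of a type and less RNA per cell cannot be told apart.

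**Figure D1:**
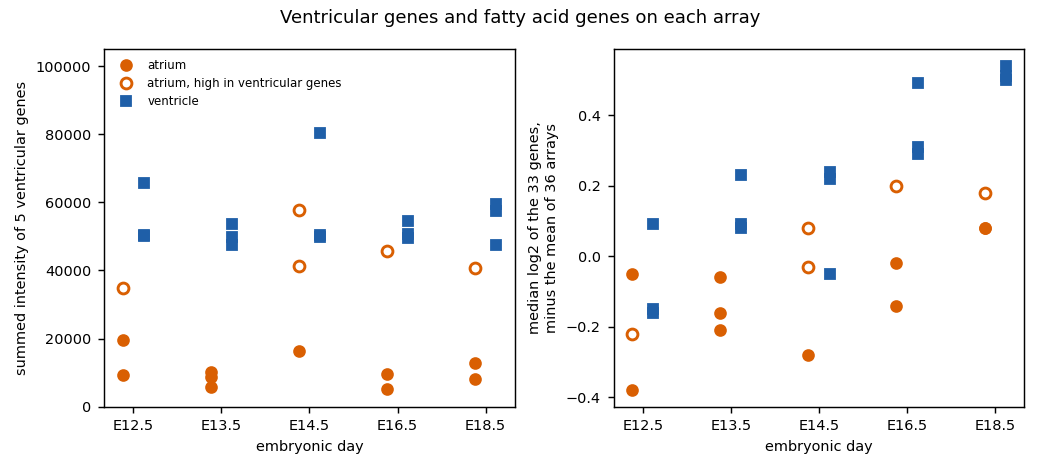
Left, summed intensity of 5 ventricular marker genes (linear scale) on each atrial and ventricular array by embryonic day; right, the median over the 33 fatty acid genes of log2 intensity minus each gene's mean over 36 arrays. Each symbol is 1 array, open circles are the 5 atrial arrays high in ventricular genes (34908 to 57907), and in the right panel the 3 ventricular arrays of E18.5 are highest, at 0.50 to 0.54.

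The plot of ventricular marker sums shows 1 of these 5 arrays within the range of the ventricles in the left panel and the other 4 between the remaining atria and the ventricles. In the right panel the median of the 33 genes on the 3 arrays of a group was 0.08 to 0.18 in E18.5 atria, against -0.38 to -0.05 in E12.5 atria, and 0.50 to 0.54 in E18.5 ventricles, against -0.16 to 0.09 in E12.5 ventricles. At E14.5 the 2 atrial arrays high in ventricular genes stood at -0.03 and 0.08 and the third at -0.28.

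The first comparison asked how ventricles changed between E12.5 and E18.5, the earliest and latest ages at which the chambers were separate. Every step of uptake and of the mitochondrial cycle was represented among the genes that rose, from Cd36 and Lpl to the thiolase gene Acaa2. Of the 33 genes, 23 were higher at E18.5 and none was lower, while 14.7% of the 12970 genes were called higher and 16.9% lower. The median over the 33 genes was 0.54 on the log2 scale, beside -0.03 over all genes tested. On the 23 genes called the differences ran between 0.39 and 2.17, and 5 of them were at least 2-fold higher. An adjusted p below 0.05 was called throughout.

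All 4 genes of uptake rose in ventricles. Cd36, the membrane fatty acid translocase, had intensities of 5964, 6826 and 6636 in E18.5 ventricles, against 1230, 2331 and 1016 in E12.5 ventricles. The groups did not overlap, and array 2 was the highest of the E12.5 ventricles. Its difference was 2.17 ± 0.24 (log2, SE of the fit), 4.48-fold (adjusted p = 1.9e-07), rank 58 of 12970 genes from the top. Folds are on the scale of intensity plus 17 and understate changes of dim probe sets. Fabp3, the fatty acid binding protein of heart muscle, had 15179, 16152 and 13681 in E18.5 ventricles, against 6245, 9379 and 6749 in E12.5 ventricles (1.03 ± 0.23, adjusted p = 0.00101). Again array 2 was the highest at E12.5 and the groups did not overlap. Lpl, lipoprotein lipase, rose by 1.02 ± 0.15 (adjusted p = 1.23e-05), with 9917 to 11994 in E18.5 ventricles and 5052 to 5767 in E12.5 ventricles. Slc27a1, a fatty acid transport protein that was dim on these arrays, had 397 to 401 in E18.5 ventricles and 194 to 261 in E12.5 ventricles (0.74 ± 0.22, adjusted p = 0.0132), and lost its call without E12.5 ventricular array 3 (0.62, adjusted p = 0.0754).

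Activation and the carnitine shuttle moved less. None of the 3 acyl-CoA synthetase genes measured was called (Acsl3 0.13, Acsl4 0.02, Acsl5 -0.22). Of 4 shuttle genes only Crat was called. Second probe sets of Acsl4 (0.82, adjusted p = 0.00832) and of the carnitine carrier gene Slc25a20 (0.38, adjusted p = 0.00481) were called higher. Crat encodes carnitine acetyltransferase, which exchanges acetyl groups between CoA and carnitine. It had 2718, 2897 and 2765 in E18.5 ventricles, against 867, 1254 and 770 in E12.5 ventricles (1.55 ± 0.17, 2.93-fold, adjusted p = 2.25e-07). All 3 E18.5 values lay above the highest of E12.5 by more than the range of either group. A dimmer probe set of Crat was not called (-0.34, adjusted p = 0.469), and the dimmest was called higher (1.15, adjusted p = 0.00204). Cpt1a, the liver form of the outer carnitine palmitoyltransferase and the entry step of the shuttle, had 1455, 1730 and 1716 in E18.5 ventricles and 1294, 1684 and 1205 in E12.5 ventricles. These ranges overlapped and the difference of 0.24 ± 0.14 was not called (adjusted p = 0.219). Cpt2 (0.00) and the brighter probe set of Slc25a20 (0.35) were not called either.

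The enzymes of the cycle rose together. All 5 acyl-CoA dehydrogenase genes were higher, in the order Acadvl (1.05, very long chains), Acadm (0.90, medium chains), Acadl (0.68, long chains), Acadsb (0.56, short branched chains) and Acads (0.41, short chains). Acadvl had 5410, 5462 and 5101 in E18.5 ventricles, against 2224, 3016 and 2483 in E12.5 ventricles, with no overlap (adjusted p = 1.67e-05). Acadsb was called narrowly (adjusted p = 0.0408) and lost its call in 8 of 15 alternatives, among them the fits without E12.5 ventricular array 1 (0.48, adjusted p = 0.146) and array 3 (0.55, adjusted p = 0.0986) and without each E18.5 ventricular array. All 3 genes of electron transfer from these dehydrogenases were higher: Etfdh, the membrane oxidoreductase, by 0.84, and the flavoprotein subunits Etfa by 0.67 and Etfb by 0.41. All 5 genes of the later steps were higher too, led by Acaa2 (0.91), the mitochondrial thiolase, and Echs1 (0.83), the short-chain hydratase. Hadha and Hadhb, the subunits of the trifunctional protein whose genes start back to back, rose by 0.50 ± 0.10 and 0.54 ± 0.11 (adjusted p = 0.000556 and 0.000591). Hadh, the short-chain hydroxyacyl dehydrogenase, rose by 0.39. Acads, Etfb and Hadh, the 3 smallest of these changes, each lost their call without E12.5 ventricular array 1 or E18.5 ventricular array 2, with values of 0.32 to 0.36.

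The auxiliary enzymes for unsaturated chains were all higher, Eci1 by 0.98, Eci2 by 0.52 and the dienoyl reductase Decr1 by 0.49. Eci1, a mitochondrial enoyl-CoA isomerase, had 5153, 5524 and 4788 in E18.5 ventricles, against 2278, 3148 and 2465 in E12.5 ventricles. The peroxisomal genes Acaa1a (0.14) and Hsd17b4 (0.15) were not called. A dimmer probe set of Acaa1a, with a mean of 124 that lies below the cut-off, was called higher (0.63, adjusted p = 0.043). Of 4 control and accessory genes, Mlycd, which removes the shuttle inhibitor malonyl-CoA, rose by 0.91, and the mitochondrial acyl-CoA thioesterase Acot2 rose by 0.59. Acot2 was the 1 called gene whose groups overlapped, and without E12.5 ventricular array 3 it stood at 0.26 (adjusted p = 0.305). Pdk4, the kinase that inhibits pyruvate dehydrogenase, was at 0.29 (adjusted p = 0.319) and the mitochondrial carrier gene Ucp3 at 0.06.

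**Figure D2:**
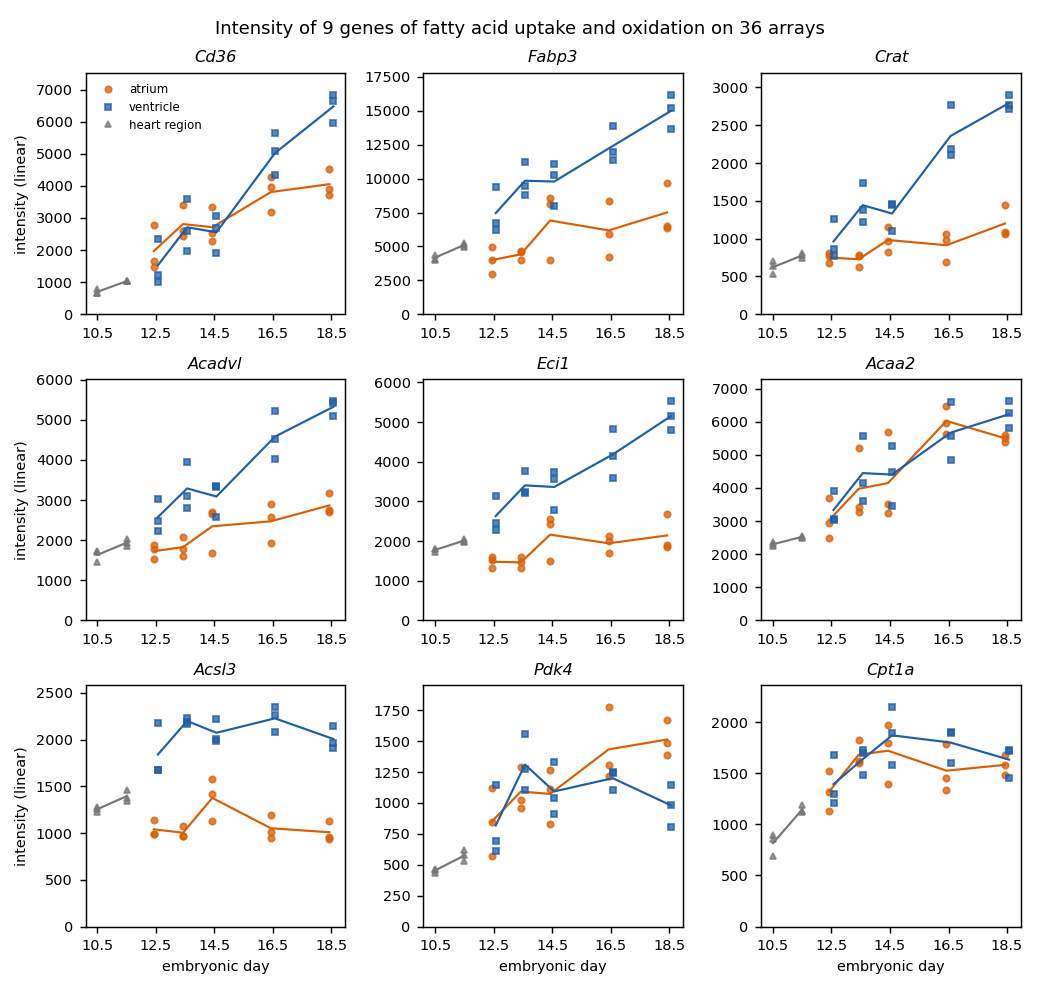
Intensity (linear scale) against embryonic day for 9 genes on 36 arrays; each symbol is 1 array, circles are atria, squares ventricles and triangles the heart region, and lines join the means of the 3 arrays of a group. Cd36 and Crat climb most in ventricles, Eci1 and Acsl3 separate the chambers at each age, and Cpt1a does neither.

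The plot of 9 genes by day shows the course between these ages. For Cd36 the ventricular means were 1525 ± 706, 2710 ± 822, 2554 ± 594, 5019 ± 663 and 6475 ± 453 at the 5 ages from E12.5 to E18.5 (SD, n = 3 each). By E16.5, 16 of the 33 genes were already higher than at E12.5 and none was lower (8.1% of all genes were called higher and 8.65% lower), with a median of 0.45 beside -0.00 over all genes. Between E16.5 and E18.5 limma called none of the 33, and few genes in all (0.123% higher and 0.108% lower). At an unadjusted p below 0.05, for which the share of all genes was not counted, 3 of the 33 were higher in that last interval and none lower. The largest of these was Lpl at 0.44 (adjusted p = 0.261), and none of the 33 was called in any alternative. The count by E16.5 was 9 without E16.5 ventricular array 3.

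Other cell types moved with age as well. The summed intensity of the 5 erythroid markers was 1285 to 1603 in E18.5 ventricles, against 24746 to 47681 in E12.5 ventricles, and 3491 to 4054 in E18.5 atria, against 37925 to 55036 in E12.5 atria. All 5 were lower at E18.5 in each chamber, and the part of this loss in the results, on arrays scaled to a common trimmed mean, was not tested. The 5 cardiac muscle genes summed to 60455 to 75542 in E18.5 ventricles and 59058 to 74258 in E12.5 ventricles. Of these 5, 2 were called higher and none lower in ventricles, and none was called in atria. Of 7 endothelial markers, 2 were higher and 1 lower at E18.5 in ventricles, with sums of 13063 to 13396 against 12411 to 12916 at E12.5, and 2 were higher in atria, with sums of 13855 to 15355 against 7696 to 12877. Of 6 fibroblast markers, 5 were higher in ventricles, and 3 were higher and 1 lower in atria. Of 5 macrophage markers, 3 were higher in each chamber (medians 0.71 in ventricles and 1.02 in atria). Of 5 epicardial markers, 1 was higher and 3 lower in ventricles and 1 was lower in atria, and of 6 liver markers 1 was higher and 2 lower in atria (median -1.70) and none was called in ventricles. Cd36 and Lpl are also expressed outside heart muscle, and the part of these cells was not tested.

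The same comparison in atria called fewer of the genes. Of the 33 genes, 16 were higher at E18.5 than at E12.5 and none was lower, while 14.7% of all genes were called higher and 12.8% lower. The median over the 33 was 0.26, beside 0.02 over all genes. Without the 5 atrial arrays high in ventricular genes, which leaves 2 arrays at each of the ages compared, 14 were higher and none lower. The median was then 0.235. The call was lost for Acadm (0.33, adjusted p = 0.0759) and Eci1 (0.37, adjusted p = 0.0894).

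All 4 genes of uptake rose in atria also. Cd36 had 4538, 3713 and 3905 in E18.5 atria, against 1458, 1652 and 2791 in E12.5 atria, a difference of 1.09 ± 0.24 (2.13-fold, adjusted p = 0.0013). The groups did not overlap, and E12.5 array 3 was the highest of its group. Without the 5 arrays the difference was 0.91 (adjusted p = 0.037). Fabp3 had 9667, 6378 and 6476 in E18.5 atria and 2994, 4005 and 4983 in E12.5 atria (0.91 ± 0.23, adjusted p = 0.00379). The highest of these, E18.5 array 1, was 1 of the 5, and without them Fabp3 stood at 0.73 (adjusted p = 0.0114). Slc27a1 (0.85) and Lpl (0.61) were the others. Slc27a1 lost its call without E12.5 atrial array 1 (0.52, adjusted p = 0.108).

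Of the cycle, Acadl (0.76), Acadvl (0.73), Acadm (0.48), Etfdh (0.56), Echs1 (0.83), Acaa2 (0.87), Eci1 (0.51) and Decr1 (0.49) were called in atria. Acaa2 had 5394, 5514 and 5589 in E18.5 atria and 2483, 2929 and 3698 in E12.5 atria (0.87 ± 0.18, adjusted p = 0.000925). The E18.5 values lay close together and above all of E12.5. Crat rose by 0.66 ± 0.17 (adjusted p = 0.00592), with 1448, 1090 and 1063 in E18.5 atria and 674, 810 and 765 in E12.5 atria. Without E18.5 array 1, the highest, its call was lost (0.52, adjusted p = 0.0537). So were those of Acadm and Eci1 without that array or without E12.5 atrial array 1, and that of Etfdh with the mean of its probe sets (0.49, adjusted p = 0.0734). The dimmer probe sets of Crat were not called in atria (-0.03 and 0.61). Acads, Acadsb, Etfa, Etfb, Hadha, Hadhb, Hadh, Eci2 and Acot2, all called in ventricles, ran between -0.01 and 0.23 in atria and were not called.

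Of the control genes Mlycd (0.64) and Pdk4 were called. Pdk4 and Acsl4 were called in atria and not in ventricles on the probe sets used. Pdk4 had 1384, 1669 and 1487 in E18.5 atria and 567, 850 and 1124 in E12.5 atria (0.87 ± 0.21, adjusted p = 0.00287), with no overlap. Without E12.5 atrial array 1, the lowest, the difference was 0.62 (adjusted p = 0.0506). Acsl4, an acyl-CoA synthetase known for its preference for arachidonic acid, had 1192, 1122 and 1232 in E18.5 atria and 833, 864 and 791 in E12.5 atria (0.50 ± 0.13, adjusted p = 0.00494). The other 2 probe sets of Acsl4 did not share this pattern: a dimmer one was called in ventricles (0.82, adjusted p = 0.00832) and not in atria (0.48, adjusted p = 0.134), and the other in neither (0.25 in ventricles and 0.23 in atria). For neither was the change called different between chambers, with atrial minus ventricular values of 0.58 for Pdk4 and 0.48 for Acsl4 (adjusted p = 0.299 and 0.137). Cpt1a was not called in atria either, with 1676, 1586 and 1486 at E18.5 and 1133, 1321 and 1518 at E12.5 (0.26 ± 0.14, adjusted p = 0.181).

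By E16.5, 9 of the 33 genes were higher than at E12.5 in atria and none was lower (8.33% of all genes higher, 6.11% lower). This count was 2 without the 5 arrays, with a median of 0.20 against 0.26 with them, and it was 1 without E12.5 atrial array 1 and 5 without E16.5 atrial array 1 or array 2. From E16.5 to E18.5 only Acsl4 was called, at 0.60 (adjusted p = 0.0312; 0.193% of all genes higher and 0.193% lower). That call was lost without the 5 arrays (0.56) and without any 1 of E16.5 arrays 2 and 3 or the 3 E18.5 arrays.

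**Figure D3:**
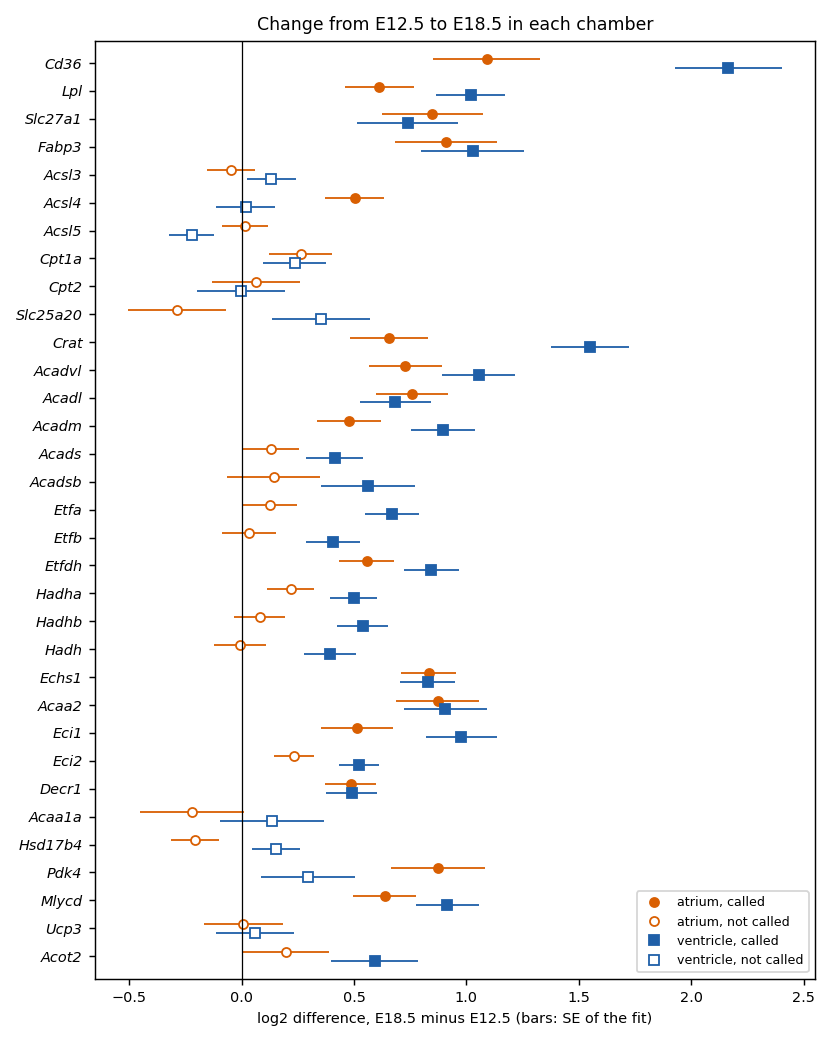
Difference between E18.5 and E12.5 (log2, later minus earlier) for each of the 33 genes in atria (circles) and ventricles (squares), with the SE of the fit as bars and filled symbols for an adjusted p below 0.05. The genes are ordered by step of the pathway; 23 squares and 16 circles are filled, and 25 of 33 circles lie left of their square.

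The plot of both changes sets the chambers side by side. Whether the change differed between them was tested as atrial minus ventricular change. It was below 0 for 25 of the 33 genes, with a median of -0.29 beside 0.03 over all genes, and only Crat was called, lower in atria (-0.89 ± 0.24, adjusted p = 0.0361; 1.26% of all genes were called lower and 3.31% higher). At an unadjusted p below 0.05, 11 were lower and 1 higher, a threshold at which the share of all genes was not counted. Cd36 had the largest difference, -1.07 ± 0.34, and was not called (adjusted p = 0.0697). Without the 5 atrial arrays 4 genes were called, all lower: Crat (-0.98), Etfa (-0.71), Hadhb (-0.56) and Hadh (-0.52). The median was then -0.346, and the share of all genes called in that fit is not given. The call of Crat was lost in 16 of 24 alternatives, and the mean of its probe sets gave -0.37 (adjusted p = 0.374). Its other 2 probe sets stood at -0.54 and 0.32, neither called. For the other genes a call in 1 chamber alone is therefore not shown to differ between chambers.

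The next comparison asked how atria differed from ventricles over the 5 ages, with 15 arrays of each. Genes of the mitochondrial cycle were mostly lower in atria, while the peroxisomal ones were not called. For Lpl this depended on the probe set. Of the 33 genes, 17 were lower and 1 was higher, where 22.6% of all genes were called lower and 24% higher. The median over the 33 was -0.15, beside -0.00 over all genes. Without the 5 atrial arrays high in ventricular genes, 18 were lower and 1 higher, with a median of -0.20. Markers of other cell types were higher in atria as well, all 5 erythroid and 5 epicardial ones tested, 5 of 6 of fibroblasts and 4 of 5 of macrophages, while 3 of 7 endothelial markers were higher and 3 lower. Both brown fat and adipocyte markers tested, Cidea and Prdm16, were lower in atria, as were 17 of the 33 genes. Their part in the difference was not tested.

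Eci1 had the largest difference of the 33. Its lowest, median and highest intensities were 1313, 1711 and 2677 in atria, against 2278, 3593 and 5524 in ventricles, and at each single age the 2 groups did not overlap. The difference was -1.01 ± 0.07 (2.02-fold lower, adjusted p = 2.1e-12), and -1.16 without the 5 arrays. Acsl3, an acyl-CoA synthetase linked to lipid droplet formation, had 938, 1013 and 1582 in atria, against 1673, 2145 and 2346 in ventricles. It was the 1 gene of the 33 with no overlap over all 30 arrays, and it was called with age in neither chamber (-0.92 ± 0.05 between the chambers, adjusted p = 5.72e-15). How many of all genes separated the chambers in this way was not counted. The highest atrial values of Acsl3, 1582 and 1422, were on E14.5 arrays 1 and 2, both among the 5.

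Fabp3 was 1.92-fold lower in atria (-0.94 ± 0.10, adjusted p = 1.02e-08), with 2994, 4983 and 9667 in atria, against 6245, 11096 and 16152 in ventricles. The difference was -1.17 without the 5 arrays. Cd36, at the same step of uptake, was not called over the 5 ages (-0.10 ± 0.11, adjusted p = 0.473). Its lowest, median and highest values were 1458, 3185 and 4538 in atria and 1016, 3059 and 6826 in ventricles. Lpl (-0.16) and Slc27a1 (0.00) were not called, although Lpl was without the 5 arrays (-0.19, adjusted p = 0.0327), and a second, dimmer probe set of Lpl was lower in atria on all arrays (-0.33, adjusted p = 0.000677). Among the shuttle genes Crat was lower (-0.86 ± 0.08, adjusted p = 2.93e-10), with 631, 824 and 1448 in atria and 770, 1459 and 2897 in ventricles, while Cpt1a (-0.09), Cpt2 (-0.13) and Slc25a20 (0.18) were not called. A dimmer probe set of Crat stood at 0.01 (adjusted p = 0.947), and the dimmest was lower in atria (-0.58, adjusted p = 0.000293). A dimmer probe set of Cpt2 was lower in atria too (-0.26, adjusted p = 0.00856).

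Within the cycle 4 of 5 acyl-CoA dehydrogenase genes were lower, Acadvl (-0.72), Acads (-0.64), Acadm (-0.49) and Acadl (-0.40). Acadvl had 1535, 2082 and 3166 in atria, against 2224, 3358 and 5462 in ventricles. The fifth, Acadsb, whose enzyme also serves the breakdown of isoleucine, was the 1 gene higher in atria (0.47 ± 0.09, 1.39-fold, adjusted p = 0.000124), with 621, 853 and 1378 in atria and 291, 673 and 861 in ventricles. Its probe set name ends in _x_at, as do those used for Hadhb, Hadh, Acaa1a and Hsd17b4, which Affymetrix gives where probes may also match other transcripts. Etfa (-0.42), Etfdh (-0.38), Etfb (-0.23), Echs1 (-0.52), Hadhb (-0.36), Hadha (-0.32), Hadh (-0.15) and Decr1 (-0.15) were lower, and Acaa2 (-0.10) and Eci2 (-0.01) were not called. Quantile normalization ended the call of Hadh (-0.06, adjusted p = 0.225) and median centring that of Decr1 (-0.14, adjusted p = 0.1).

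Outside the cycle, the peroxisomal genes Acaa1a (0.13) and Hsd17b4 (0.04) and the control genes Pdk4 (0.13), Mlycd (-0.11), Ucp3 (0.03) and Acot2 (-0.15) were not called. Acsl4 was lower in atria (-0.49 ± 0.06, adjusted p = 5.3e-08), and Acsl5 (-0.02) was not called. Put together with the changes by age, on the probe sets used, 9 genes were lower in atria and higher at E18.5 in both chambers (Fabp3, Crat, Acadvl, Acadl, Acadm, Etfdh, Echs1, Eci1 and Decr1). Another 6 were lower in atria and called higher with age in ventricles but not in atria (Acads, Etfa, Etfb, Hadha, Hadhb and Hadh), and for none of them was the change called different between chambers on all arrays. For 2 of these 6 another probe set was called higher in atria, Hadhb at 0.32 (adjusted p = 0.0273) and Hadh at 0.78 (adjusted p = 0.0244). Cd36, Lpl, Slc27a1, Acaa2 and Mlycd rose in both chambers without a call between them, and 7 genes were called in none of the 3 comparisons on the probe sets used (Acsl5, Cpt1a, Cpt2, Slc25a20, Acaa1a, Hsd17b4 and Ucp3). Among these 7, dimmer probe sets were called for Slc25a20 (0.38 with age in ventricles) and Cpt2 (-0.26 between the chambers). One of Acaa1a was called higher with age in ventricles (0.63, adjusted p = 0.043) and atria (0.67, adjusted p = 0.0362).

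**Figure D4:**
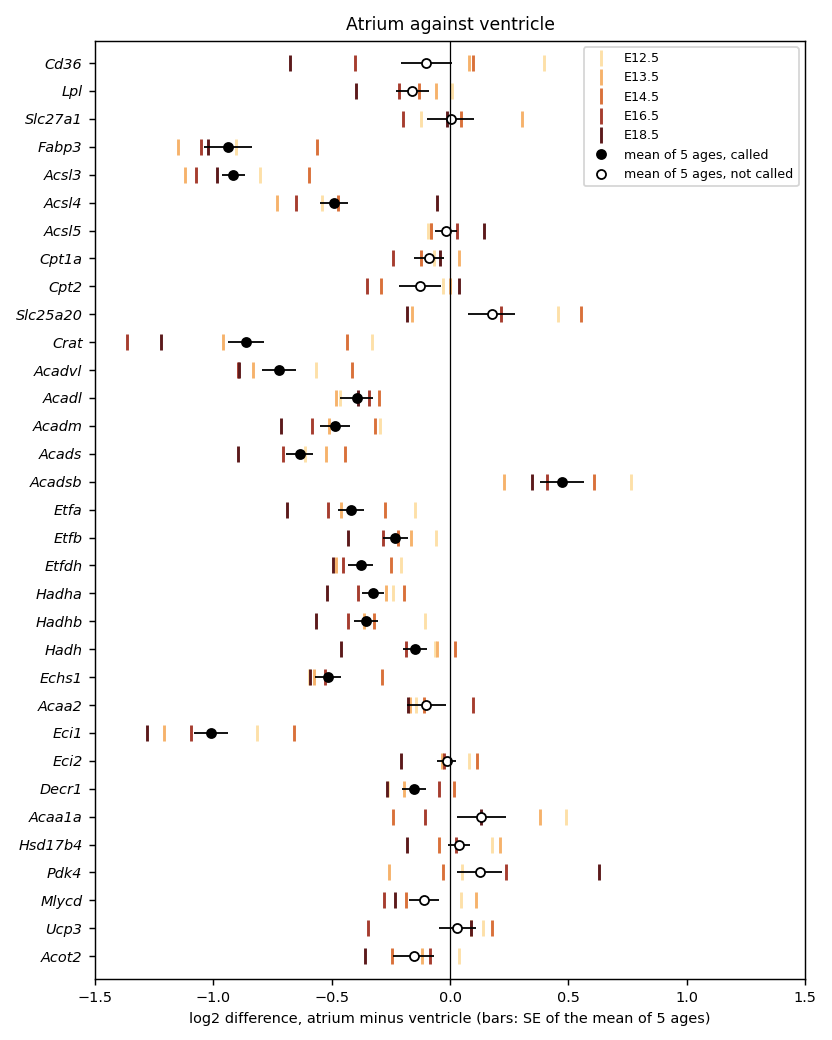
Difference between atrium and ventricle (log2, atrium minus ventricle) for each of the 33 genes; circles are the mean of the 5 ages with its SE, filled where the adjusted p was below 0.05, and vertical ticks are the 5 single ages from light (E12.5) to dark (E18.5). Of the filled circles 17 lie left of 0 and 1, Acadsb, lies right.

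By single age, as the plot of chamber differences shows with its ticks, the 33 genes had 7 lower and 1 higher in atria at E12.5 (6.07% of all genes lower, 5.22% higher), and 13 lower and none higher at E13.5 (7.81% and 6.72%). At E14.5 the count was 4 lower and none higher (2.37% and 5.11%), at E16.5 it was 13 and none (8.7% and 10.9%), and at E18.5 it was 15 and 1 (9.79% and 12.9%). The medians over the 33 genes were -0.11, -0.17, -0.22, -0.34 and -0.39 in order of age. Without the 5 atrial arrays, none of which is of E13.5, they were -0.12 at E12.5 and -0.41, -0.42 and -0.44 at the 3 ages after E13.5, so that the E14.5 value lay close to the later ones. The counts were then 7 lower and 1 higher at E12.5, 16 and none at E16.5 and 16 and 1 at E18.5. At E14.5, where 2 of 3 atrial arrays were high in ventricular genes, the 1 remaining array gave 12 lower and none higher, on the assumption that it varies like the other groups. The same count at E14.5 was 2 without ventricular array 1, 7 without atrial array 2 and 1 without atrial array 3. At E13.5 it was 8 without ventricular array 1 or without atrial array 3.

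Acsl3, Acads and Eci1 were lower in atria at all 5 ages, with no overlap at any, and the share of all genes with this trait was not counted. Fabp3 and Acadvl were called at 4 ages and stood at -0.56 and -0.42 at E14.5. Acsl4 was lower at the first 4 ages and stood at -0.05 at E18.5 (adjusted p = 0.822). At E18.5 Cd36 was lower in atria (-0.68 ± 0.24, adjusted p = 0.0445) and Pdk4 higher (0.63 ± 0.21, adjusted p = 0.0333), both with no overlap, and neither was called at an earlier age. The call of Cd36 was lost in 12 of 17 alternatives and that of Pdk4 in 7 of 17, leaving out single arrays included.

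The earliest comparison set E11.5 against E10.5 in the heart region. None of the 33 genes was called in limma (1.24% of all genes higher, 0.27% lower). At an unadjusted p below 0.05, for which the share of all genes was not counted, 4 were higher and none lower. A fit to these 6 arrays alone called 6 of the 33 genes, and it called 1312 of all genes, against 196 in the main fit. Cd36 had 1030, 1040 and 1022 at E11.5 and 661, 788 and 651 at E10.5, which did not overlap (0.55, adjusted p = 0.326). Cpt1a had 1129, 1118 and 1192 at E11.5 and 897, 858 and 692 at E10.5 (0.49, adjusted p = 0.0849). Eci1 had 1980 to 2064 at E11.5 and 1726 to 1808 at E10.5, and Acsl3 had 1343 to 1461 at E11.5 and 1231 to 1276 at E10.5.

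Around the 33 genes, 6 lists of related genes were followed. Their counts stand beside the same shares of all genes as above: 14.7% higher and 16.9% lower with age in ventricles, 14.7% higher and 12.8% lower in atria, and 24% higher and 22.6% lower in atria than in ventricles. Of 7 further transport genes tested, 3 were higher at E18.5 in ventricles and 5 in atria (14.7% of all genes in each), and none was lower. Fabp4, the fatty acid binding protein of fat cells and capillary endothelium, had 11395, 12387 and 11392 in E18.5 ventricles, against 245, 5156 and 562 in E12.5 ventricles (3.67 ± 0.76, adjusted p = 0.00052). In atria it had 6371, 3171 and 3016 at E18.5 and 668, 252 and 717 at E12.5 (2.95 ± 0.76, adjusted p = 0.00493). The E12.5 ventricular arrays differed widely from each other, with array 2 far above the other two. The atrial change was 2.13 without the 5 atrial arrays (adjusted p = 0.0518). Gpihbp1, which anchors lipoprotein lipase to the capillary wall, rose by 2.66 ± 0.34 in ventricles and by 1.44 ± 0.34 in atria. Vldlr, the receptor for very low density lipoprotein, rose by 1.53 ± 0.20 in atria and was at 0.47 in ventricles. This difference between the chambers was called (1.05 ± 0.28, adjusted p = 0.0274), and was lost in 13 of 24 alternatives.

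Triglyceride storage and lipolysis had 8 of 10 genes higher in E18.5 ventricles and none lower (14.7% and 16.9% of all genes), and 6 higher and 1 lower in atria (14.7% and 12.8%). The medians were 0.995 in ventricles and 0.60 in atria. These counts and medians include Plin4 and Plin5, whose E12.5 values all lay below the cut-off, and they were not computed without them. Mgll, monoacylglycerol lipase, had 2312, 2186 and 2297 in E18.5 ventricles, against 274, 437 and 258 in E12.5 ventricles (2.78 ± 0.26, adjusted p = 1.52e-08), and it rose by 1.74 ± 0.26 in atria. Plin4, a lipid droplet coat protein, was called higher in both chambers, with 649 to 927 in E18.5 ventricles and 35.4 to 128 in E12.5 ventricles, and 288 to 471 in E18.5 atria and 18.7 to 137 in E12.5 atria. All its E12.5 values lay below the cut-off, so the size of the change is not measured. Dgat2, which makes triglyceride, rose by 1.52 in ventricles and 0.93 in atria, and G0s2, an inhibitor of triglyceride lipase, by 1.13 in ventricles and 1.48 in atria. Plin5, the droplet coat protein of oxidative tissue, had 188, 311 and 403 in E18.5 ventricles and 93.3, 76.6 and 55.1 in E12.5 ventricles, and it was called higher. All its E12.5 ventricular values lay below the cut-off, so the size of the change is not measured. Apart from the E18.5 ventricles, only E16.5 ventricular array 3 (183) passed the cut-off for Plin5. The gene thus passed the filter only through the group where it was high, and its call adds no support of its own. No atrial array passed the cut-off of 171.8 for Plin5 (the highest was 162), so no atrial change is given. Plin2, a droplet coat protein found in most tissues, was the gene that fell, in atria (-0.59). Of the 6 markers of brown fat and adipocytes, Cidea and Prdm16 were tested, Plin1 had no probe set of its own, and Ucp1, Adipoq and Elovl3 stayed below the cut-off. Cidea had 491, 449 and 387 in E18.5 ventricles and 17, 110 and 46 in E12.5 ventricles, and the part of fat cells was not tested.

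**Figure D5:**
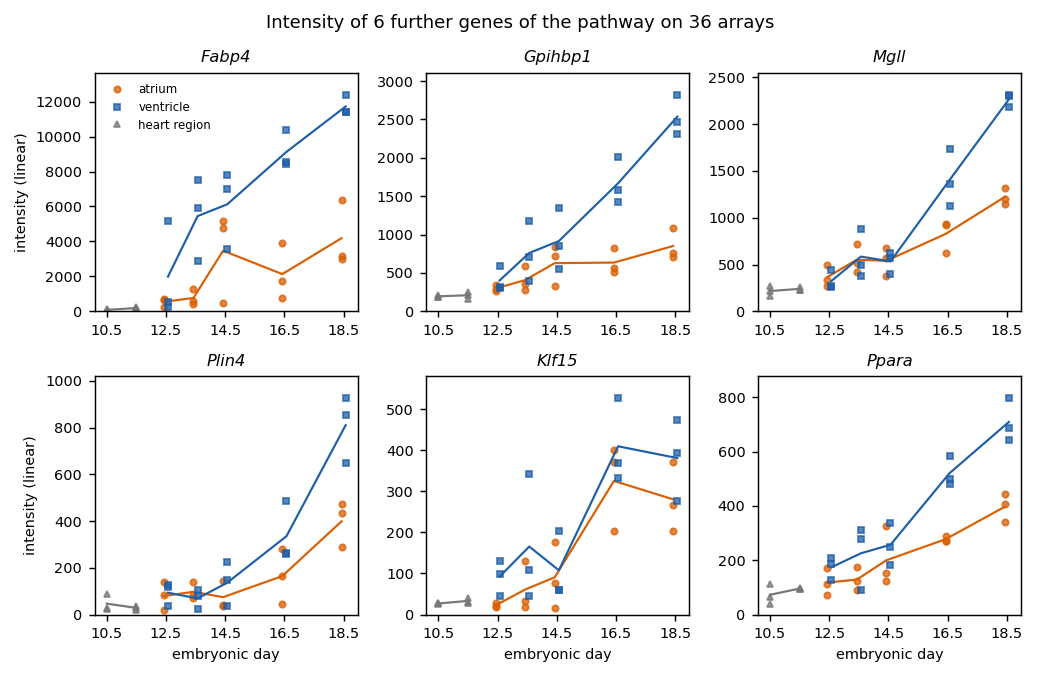
Intensity (linear scale) against embryonic day for 6 related genes on 36 arrays; symbols and lines are as in the plot of 9 members, with circles for atria, squares for ventricles and triangles for the heart region. In Fabp4, Gpihbp1, Mgll, Plin4 and Ppara all 3 E18.5 ventricular arrays lie above every atrial array, and in Fabp4 ventricular array 2 of E12.5 lies apart at 5156.

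The plot of 6 related genes includes 2 of the nuclear regulators. Of 12 of these tested, 7 were higher at E18.5 in ventricles and 1 lower (14.7% and 16.9% of all genes), and 5 were higher in atria and none lower (14.7% and 12.8%). Ppara, the receptor for fatty acids, had 797, 688 and 642 in E18.5 ventricles, against 127, 207 and 188 in E12.5 ventricles (1.95 ± 0.34, adjusted p = 9.08e-05). It had 405, 443 and 342 in E18.5 atria, against 111, 72.2 and 170 in E12.5 atria (adjusted p = 0.000696), all 3 of these below the cut-off, so no size is given. Neither pair of groups overlapped. Klf15, a transcription factor of lipid and amino acid metabolism, was called higher in both chambers. It had 276 to 472 in E18.5 ventricles and 45.7 to 131 in E12.5 ventricles, and 203 to 370 in E18.5 atria and 17.7 to 27.5 in E12.5 atria. All its E12.5 values lay below the cut-off, so the size of the change is not measured. In ventricles the call was lost without E12.5 array 1 (adjusted p = 0.0647). The estrogen-related receptor gene Esrra rose by 1.18 and 0.88, Lpin1 by 0.65 and 0.68, and the coactivator gene Ppargc1a by 0.37 and 0.54, in ventricles and atria in that order. The call of Esrra in atria was lost without the 5 arrays (0.71, adjusted p = 0.15) and that of Ppargc1a in ventricles without E12.5 array 1 (0.33), array 3 (0.27) or any E18.5 array. Ppargc1b, the related coactivator gene, rose by 0.85 in ventricles and was at 0.11 in atria, and Esrrg fell in ventricles (-0.39), a call lost without E12.5 array 1 (-0.34, adjusted p = 0.0911) or without E18.5 array 1 or 3. Against ventricles over the 5 ages, 7 of the 12 were lower in atria and none higher (22.6% and 24% of all genes), with Ppargc1b (-0.93) and Esrrg (-0.63) among the lowest. Klf15 (-0.74) and Ppara (-0.65) were called too, but values below the cut-off enter both, so their sizes are not measured. Besides E12.5, Klf15 lay below the cut-off on all E13.5 atrial arrays (19 to 130). Its ranges overlapped at E16.5, with 203 to 401 in atria and 332 to 527 in ventricles. They overlapped at E18.5 as well (203 to 370 and 276 to 472). The chamber difference of Klf15 was not called without the 3 atrial arrays high in lung genes (-0.60, adjusted p = 0.0784).

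Of 8 genes that set the choice between pyruvate and fatty acids, 5 were higher at E18.5 and 1 lower in ventricles, and 4 were higher and 1 lower in atria (14.7% and 16.9% of all genes in ventricles, 14.7% and 12.8% in atria). Pdk2 rose by 1.12 in ventricles and 0.75 in atria, and Pdp1, the phosphatase that opposes the kinases, by 1.09 and 0.62. Pdk3 fell by 0.81 in ventricles and fell by 0.47 in atria. The atrial calls of Pdk2 (0.55) and Pdk3 (-0.44) were lost without the 5 atrial arrays. Over the 5 ages 7 of the 8 were lower in atria and none higher (22.6% and 24% of all genes), with Pdp1 (-0.64) and Acacb (-0.63), the acetyl-CoA carboxylase that makes malonyl-CoA at mitochondria, furthest. With the mean of its probe sets Acacb stood at -0.05 (adjusted p = 0.692). Of 9 further oxidation and carnitine enzymes, 4 were higher and 1 lower at E18.5 in ventricles, 2 were higher and none lower in atria, and 5 were lower and 1 higher in atria than in ventricles. The 2 of 9 in atria are near the share of all genes, 14.7%. Acad11, an acyl-CoA dehydrogenase for very long chains, had the largest changes among these, 1.16 in ventricles and 1.1 in atria. Hsd17b10, a mitochondrial dehydrogenase, rose by 0.66 in ventricles and was at 0.05 in atria, and this difference was called (-0.61 ± 0.15, adjusted p = 0.0152). Acot13, an acyl-CoA thioesterase, was lower in atria (-0.70) and rose by 0.83 in ventricles and by 0.46 in atria. Of 3 ketone body genes tested, Oxct1 (-0.32), Bdh1 (-0.63) and Acat1 (-0.24) were all lower in atria. With age Oxct1 (0.38) and Acat1 (0.37) were higher in ventricles, and in atria Acat1 was higher (0.35) and Bdh1 lower (-1.02).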

How the data were processed

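The authors deposited 1 table of intensities per probe set and array, on a linear scale with a 2% trimmed mean of 500 on every array and array medians of 143.8 to 210.7, per the values in the deposited file. What software made it is not given in the sources used. The 64 control probe sets were left out of 45101, and 34945 had 1 gene symbol, 932 several and 9160 none. Values were taken as log2(intensity + 17), where 17 is 10% of the median, and 27256 probe sets above 171.8 on at least 3 arrays were tested. limma 3.58.1 (R 4.3.3) fitted 12 group means to all 36 arrays, with a trend in the variance and Benjamini-Hochberg adjustment over all probe sets. Each p-value in the text is limma's, and an adjusted p below 0.05 was called. Each of 14 comparisons was tested alike, and on data simulated for ventricles at E18.5 against E12.5 the fit called 26% of probe sets changed by 0.5 and 72% of those changed by 1 (log2). Of the calls in the simulation 6.67% were false. Far fewer probe sets were changed there than the 7835 called in the data. The adjustment depends on that number, so these shares do not give the power of the real fit. Arrays correlated within groups at 0.956 to 0.981 and none were identical. Values per array are given for up to 4 called genes with the largest changes in each main comparison and for Cpt1a. Other genes shown by array were chosen after their values were seen. The members and lists were chosen with earlier results of these data known.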

Additional observations from a re-analysis of the deposited data

Results flagged for a closer look

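The change between E12.5 and E18.5 differed between the chambers by limma's test of the difference itself for 1 of the 33 genes and for 2 of the related genes. For Crat the atrial minus the ventricular change was -0.89 (adjusted p = 0.0361), from a change of 0.66 in atria and 1.55 in ventricles. The adjusted p ran between 0.00827 and 0.374 over 24 alternatives.

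For Vldlr the difference was 1.05 (adjusted p = 0.0274). Its lowest, median and highest intensities were 3247, 3337 and 3482 in E18.5 atria and 987, 1050 and 1474 in E12.5 atria, and 2794, 2811 and 3119 in E18.5 ventricles and 1776, 1781 and 2875 in E12.5 ventricles. The highest E12.5 ventricular array lay far above the others of its group, and without it the difference was 0.83 (adjusted p = 0.0771). Over 24 alternatives the adjusted p ran between 0.00622 and 0.199, and the call was lost in 13.

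For Hsd17b10 the difference was -0.61 (adjusted p = 0.0152). It had 2777, 2857 and 3112 in E18.5 atria and 2606, 2758 and 3106 in E12.5 atria, which overlapped, and 4118, 4390 and 5084 in E18.5 ventricles and 2742, 2762 and 3075 in E12.5 ventricles, which did not. Over 24 alternatives the adjusted p ran between 0.00932 and 0.101, and the call was lost in 6.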

How the results depend on the processing

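Of the calls on the 33 genes, 17 of 23 in ventricles (E18.5 against E12.5), 10 of 16 in atria and 15 of 18 between the chambers held under every alternative run. Only Etfdh between the chambers at E16.5 (0.052, adjusted p = 0.895) and Hadh with age in atria (0.36, adjusted p = 0.0195) changed sign, both with the mean of probe sets, and the cause was not tested. Of 25 other probe sets of 17 members, 22 had the same sign between the chambers and in ventricles, 19 in atria and 17 in the difference of changes. Counts that moved by over 1.5 times are given here as all genes and then the 33 members, and the cause was not tested beyond the fewer arrays of a setting.

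Median centring gave 922 genes (of 1464) between the chambers at E12.5, 0 members (of 4) at E14.5 and 7 (of 13) at E16.5. It gave 1423 genes (of 2172) and 9 members (of 16) for ventricles at E16.5 against E12.5, 1137 genes (of 1873) for atria, 24 (of 50) and 0 members (of 1) for atria at E18.5 against E16.5, 215 genes (of 593) and 0 members (of 1) for the difference of changes, and 77 genes (of 196) in the heart region. It moved the median of all genes by -0.135 between the chambers at E13.5 and by 0.11 at E16.5, by 0.111 in ventricles at E18.5 against E16.5 and by -0.109 in the difference of changes.

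Fitting only the compared groups gave 167 genes and 2 members (of 8) between the chambers at E12.5, 19 genes (of 971) and 0 members at E14.5, 2161 genes (of 3564) for atria at E18.5 against E12.5, 83 genes and 1 member (of 9) at E16.5 against E12.5, 0 genes and 0 members at E18.5 against E16.5, 230 genes and 0 members for the difference of changes, and 1312 genes and 6 members (of 0) in the heart region. The mean of probe sets gave 51 genes (of 30) for ventricles at E18.5 against E16.5, and 0 members for atria there and for the difference of changes. In that difference no filter gave 0 members and the strict filter 3.

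Equal replicate numbers gave no sign of pairing once the mean of each group was taken off its arrays. On these differences, same-numbered atria and ventricles of an age correlated at -0.335 to 0.159 over 15 pairs (median -0.129, 1 above 0.1). Differences from a group mean cancel within a group, which constrains these correlations in groups this small. The check therefore cannot decide whether the samples were paired. With age and replicate number together as the replicate block, the counts between chambers were 648 genes at E12.5, 945 genes (of 1884) and 8 members (of 13) at E13.5, 330 genes at E14.5, 1508 (of 2548) at E16.5 and 1909 (of 2946) at E18.5, and 134 genes and 0 members in the difference of changes. In comparisons between ages the replicate number alone was the block, and 328 of 329 single-gene results kept their call and direction.

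The settings that leave out arrays by their marker genes, and the mean without E14.5, were chosen after seeing the data. Without the 5 atrial arrays high in ventricular genes there were 12 members between the chambers at E14.5, 923 genes and 2 members for atria at E16.5 against E12.5, 20 genes and 0 members at E18.5 against E16.5, and 4 members in the difference of changes. Without the 3 high in lung genes there were 1928 genes between the chambers at E18.5, 5 genes and 0 members for atria at E18.5 against E16.5, and 278 genes and 0 members in the difference of changes. Without the 2 high in liver genes there were 1197 genes for atria at E16.5 against E12.5, 5 genes for ventricles at E18.5 against E16.5, and 0 members in the difference of changes.

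Leaving out 1 array at a time gave these ranges of genes (members). Between the chambers they were 5684 to 6099 (18 to 19) for the mean of ages, 730 to 1869 (6 to 10) at E12.5, 1134 to 1423 (8 to 12) at E13.5, 322 to 1125 (1 to 7) at E14.5, 1711 to 2119 (11 to 14) at E16.5 and 1964 to 2657 (13 to 15) at E18.5. In ventricles they were 3060 to 4108 (18 to 24) for E18.5 against E12.5, 1121 to 2495 (9 to 20) for E16.5 against E12.5 and 8 to 61 (0 to 0) for E18.5 against E16.5. In atria they were 2166 to 3964 (12 to 18), 410 to 2725 (1 to 11) and 11 to 221 (0 to 1). In the difference of changes they were 254 to 1154 (0 to 4), with 4 members without E12.5 ventricular array 2, 3 without E18.5 atrial array 1 and 0 without any other array but E12.5 atrial array 3, and in the heart region 40 to 130 (0 to 0). With 3 arrays a group, a gene that missed the threshold is not shown to be level.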
